A study of Mus musculus with 6 samples.

Results

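Mature miRNAs known from inflammation and immune cell activation, 9 in all, were followed in mouse fetal liver with and without the miR-144/451 locus: mmu-miR-21a-5p, mmu-miR-21a-3p, mmu-miR-146a-5p, mmu-miR-146b-5p, mmu-miR-155-5p, mmu-miR-132-3p, mmu-miR-132-5p, mmu-miR-212-3p and mmu-miR-212-5p, written below without the mouse prefix. They were chosen by name from the 1626 mature miRNAs in the deposited table, and all 9 members had a row and passed the filter on low counts that left 876 miRNAs to test. The study sequenced small RNA from fetal liver of C57BL/6J embryos in 3 wild-type libraries (WT, numbered 1 to 3) and 3 libraries with the genotype miR-144/451-/- (KO, numbered 4 to 6), with no other allele, treatment or age named. The labels give the deletion as homozygous and name no driver that limits it to a cell type. Each library came from fetal liver cells with no sort named, so fewer cells of a type and less RNA per cell cannot be told apart. The labels do not say whether libraries of a genotype came from separate embryos, so a p-value here is set by the spread between libraries, part of which may be technical.

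A miRNA is cut from a hairpin as a 5p and a 3p strand, and the strand that stays in an Argonaute protein represses mRNAs that pair with its seed, bases 2 to 8. miR-21 is an abundant miRNA of many tissues that represses Pdcd4. miR-146a is induced through NF-kB. It and miR-146b, which has the same seed, repress the signalling proteins Traf6 and Irak1, a negative feedback on Toll-like receptor signalling. miR-155 is induced in activated macrophages and lymphocytes and represses Socs1 and Inpp5d. miR-132 and miR-212 come from neighbouring hairpins that CREB activates. Red cells form in the fetal liver before birth, and most of its cells are erythroid, while macrophages, other blood cells, hepatoblasts, endothelial and stromal cells make up the rest.

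The sequences show which members can act alike and which can be told apart by counting. They are from RefSeq (GRCm38.p6, all 9 members matched), written 5′ to 3′ with the seed in capitals. The members carry 7 distinct seeds.
miR-21a-5p: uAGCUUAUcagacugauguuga
miR-21a-3p: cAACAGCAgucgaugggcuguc
miR-146a-5p: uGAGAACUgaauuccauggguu
miR-146b-5p: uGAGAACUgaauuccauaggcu
miR-155-5p: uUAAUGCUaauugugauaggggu
miR-132-3p: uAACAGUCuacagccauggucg
miR-212-3p: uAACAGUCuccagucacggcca
miR-132-5p: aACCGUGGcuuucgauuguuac
miR-212-5p: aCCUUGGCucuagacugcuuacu

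miR-146a-5p and miR-146b-5p share a seed and their first 17 bases, and differ at 2 of 22 positions, G18A and U21C, counted from 1 at the 5′ end of miR-146a-5p. miR-132-3p and miR-212-3p also share a seed, but they differ at 5 of 22 positions (A10C, C14U, U17C, U20C and G22A, counted from the 5′ end of miR-132-3p) and are alike only over the first 9 bases. Among the 1376 listed miRNAs with a RefSeq sequence, 1 miRNA that is not a member shared a member's seed. This was miR-21c, which has the seed of miR-21a-5p and a different 3′ end.
miR-21c: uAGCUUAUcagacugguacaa

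The members come from 6 hairpin genes, 4 of them on chromosome 11, which also carries the deleted locus (coordinates in GRCm38). Mir212 (75173388 to 75173478) and Mir132 (75173682 to 75173747) lie on the plus strand with 204 bases from the end of the first to the start of the second, in an intron of the noncoding gene 1700016P03Rik and 2.90 Mb from Mir144. Mir21a (86584067 to 86584158, minus strand) overlaps an exon of Vmp1, 8.51 Mb from Mir144 on the other side. Mir146, the gene of miR-146a (43374397 to 43374461, minus strand), is intergenic and 34.7 Mb away. Mir146b lies in an intron of Mfsd13a on chromosome 19 (46342762 to 46342870, plus strand), and Mir155 in an exon of its noncoding host Mir155hg on chromosome 16 (84714140 to 84714204, plus strand).

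The 6 libraries held 16243894 to 27089133 miRNA counts each. miR-451a, the check of the labels, held 3689919 to 4249816 counts per WT library and 2874 to 4645 per KO library. Erythroid miR-486a-5p stood at 43836 to 82230 CPM (counts per 1000000, scaled by TMM, a factor that sets the typical miRNA equal between libraries), and hepatocyte miR-122-5p at 29326 to 117809 CPM, so markers of the labelled tissue were present in all 6. The 3 muscle markers summed to 400.4 CPM in WT library 1 and to 13.3 to 83.5 CPM in the other 5, and the 2 neural markers to 431.9 CPM there and 16.6 to 94.5 CPM elsewhere. WT library 1 therefore stood apart in these lists, and each fold was also computed without it; the members' log2 folds then lay between -0.49 and 0.29, and 0 of 9 passed. In counts scaled to the library total alone, the median log2 fold of KO over WT was 0.34 over the 873 tested miRNAs outside the locus, and -0.01 after TMM scaling.

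None of the 9 members passed the test between genotypes. With edgeR's quasi-likelihood test, 0 of 9 had a Benjamini-Hochberg adjusted p under 0.05, where 4 of the 873 tested miRNAs outside the locus did (0.458%). The adjusted p of the members lay between 0.564 and 0.999, and 0 of 9 had an unadjusted p under 0.05, where 9.62% of the tested miRNAs outside the locus were higher and 1.37% lower in KO at that level. DESeq2 called 0 of 9 and limma-voom 0 of 9. With TMM scaling 6 members had a log2 fold below 0 and 3 above, with a median of -0.27. Of the tested miRNAs outside the locus, 52.3% were below 0. The miR-146 pair holds near-identical counts, as given below, and is a single signal. Both of its rows enter these numbers, each with a log2 fold below 0, so that signal weighs double in the median.

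**Figure D1:**
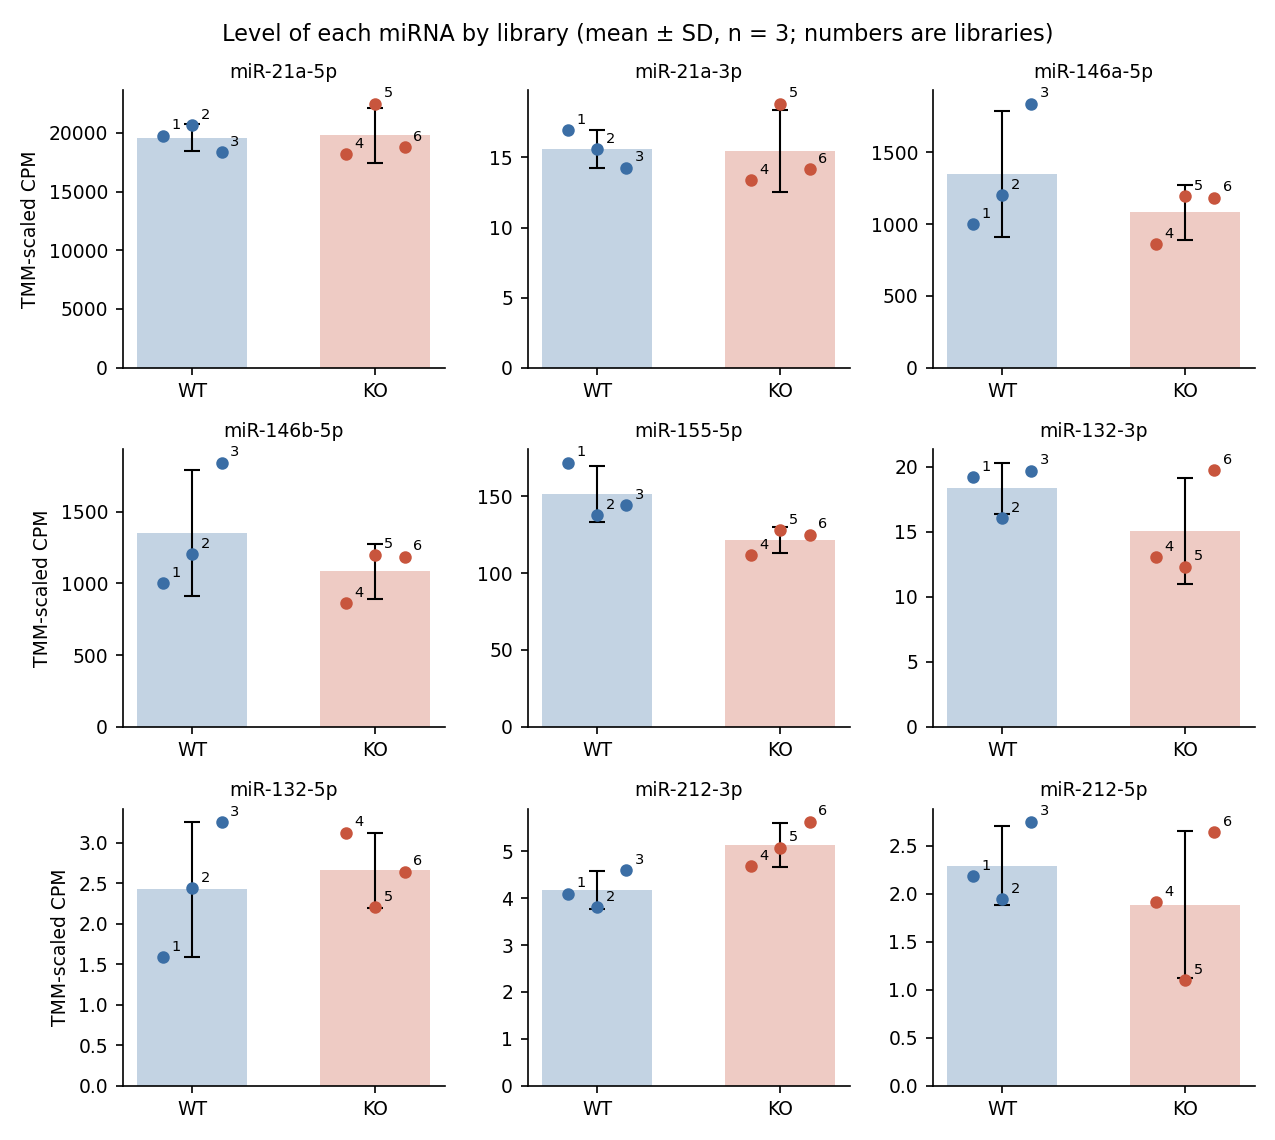
TMM-scaled CPM (linear axes from 0) of each of the 9 miRNAs in each WT and KO library; points carry the library numbers, bars are the mean and black lines the SD. The KO points lie above all WT points for miR-212-3p and below all WT points for miR-155-5p, and overlap for the other 7 members.

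The levels of the members spanned a wide range. By mean share over both genotypes, miR-21a-5p was 11th of the 1626 rows, where near-identical rows such as miR-30b-5p and miR-30c-5p were ranked singly. It stood at 18162 to 22483 CPM over the 6 libraries. The miR-146 signal followed at about 1215 CPM as a mean over the libraries, then miR-155-5p at 136.5, miR-132-3p at 16.7, miR-21a-3p at 15.5, miR-212-3p at 4.65, miR-132-5p at 2.54 and miR-212-5p at 2.09 CPM. Neighbours in this order did not overlap over the 6 libraries, except miR-146a-5p with miR-146b-5p, miR-132-3p with miR-21a-3p, and miR-132-5p with miR-212-5p. The 9 members together took 1.98% ± 0.0738 of miRNA counts in WT and 2.50% ± 0.223 in KO (SD, n = 3 each). Of the counts outside the locus they took 2.50% ± 0.0623 in WT and 2.50% ± 0.223 in KO. miR-21a-5p made up 82.6% to 90.6% of the summed members in each library. These sums hold both rows of the miR-146 signal, which lowers the percent of miR-21a-5p. With that signal counted once, the members took 1.86% ± 0.0909 of miRNA counts in WT and 2.38% ± 0.219 in KO (SD, n = 3 each).

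miR-21a-5p, the guide strand that represses Pdcd4, gave 19765, 20627 and 18343 CPM for WT 1, 2 and 3, and 18162, 22483 and 18775 CPM for KO 4, 5 and 6. The highest and the lowest value were both KO libraries, and the WT values lay between them. The means were 19578 ± 1153 CPM for WT and 19806 ± 2338 CPM for KO (SD, n = 3 each). Its log2 fold was 0.02 (SE 0.12, edgeR adjusted p = 0.999), with an approximate 95% interval of -0.27 to 0.30, or 0.829-fold to 1.23-fold.

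Scaled to all miRNA counts of the library, the locus included, miR-21a-5p differed more between the genotypes. Its share was 1.74%, 1.84% and 1.60% in WT with Wilson 95% intervals from 1.738 to 1.749, from 1.833 to 1.843 and from 1.598 to 1.608. It was 2.22%, 2.47% and 2.04% in KO, with intervals from 2.210 to 2.224, from 2.461 to 2.476 and from 2.032 to 2.044. The 3 KO shares were each above every WT share, as were those of 31.3% of the tested miRNAs outside the locus, and on this scale the same held for 3 of the 9 members, the others being miR-21a-3p and miR-212-3p. The log2 fold without a scaling factor was 0.37 (SE 0.12), against a median of 0.34 for the tested miRNAs, with an edgeR adjusted p of 0.113. At that scale 0 of 9 members passed, where 58 tested miRNAs outside the locus rose (6.64%). As a share of the counts outside the locus, miR-21a-5p took 2.18% ± 0.151 in WT and 2.24% ± 0.216 in KO (SD, n = 3 each). Such intervals hold counting error alone: the reads carry no molecular identifiers and are not independent molecules.

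miR-21a-3p, the strand of the same hairpin that is mostly discarded, stood at 16.9, 15.6 and 14.3 CPM for WT and 13.4, 18.8 and 14.2 CPM for KO. KO library 5 was highest for this strand, as it was for miR-21a-5p, and the groups overlapped. There were 1167, 1321 and 1286 counts of the 5p strand for each count of the 3p strand in WT, and 1359, 1194 and 1324 in KO. The log2 ratio of the arms differed by 0.04 (SE 0.17, 95% interval -0.32 to 0.40), with a limma adjusted p of 0.975 over 263 hairpins.

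miR-21c, from chromosome 8 and with the same seed, held 184 to 396 counts per library, and the ratio of miR-21a-5p to it was 1440 ± 462 in WT and 1385 ± 61.1 in KO (SD, n = 3 each). miR-21b, from chromosome 3 and with a changed seed (C4U against miR-21a-5p), held 110 to 203 counts. Their log2 folds were -0.01 (SE 0.26) for miR-21c and 0.04 (SE 0.20) for miR-21b, with an edgeR adjusted p of 0.999 for both. Nearly all counts with this seed were thus those of miR-21a-5p in both genotypes.

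miR-146a-5p and miR-146b-5p, which share a seed, could not be read as separate signals. Their counts differed by 14 to 52 reads per library, at most 0.239%, in rows of 17105 to 36791 counts. The ratio of miR-146a-5p to miR-146b-5p was 0.999 ± 0.000201 in WT and 0.998 ± 0.000989 in KO (SD, n = 3 each; exact two-sided permutation p = 0.8). With rows this alike, that test cannot tell whether the balance of the pair differed between genotypes. How the authors counted reads that match several miRNAs was not given in the sources used here, and no other listed miRNA came within 5% of a member in every library. The 3p strands of the hairpins differ in sequence and carry their own counts, which were low.
miR-146a-3p: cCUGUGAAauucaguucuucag
miR-146b-3p: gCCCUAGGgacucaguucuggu

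miR-146a-3p held 3, 8 and 25 counts in WT and 6, 4 and 20 in KO. miR-146b-3p held 3, 10 and 13 counts in WT and 1, 4 and 11 in KO. Reads were thus assigned to both hairpins in all 6 libraries, and neither strand passed the filter for testing. The 3p counts give no share of the 5p signal for each gene, since strands of 1 hairpin need not be kept equally.

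The miR-146 signal (as miR-146a-5p) stood at 1001, 1203 and 1839 CPM for WT and 862.6, 1197 and 1185 CPM for KO. WT library 3 was highest and KO library 4 lowest, and the groups overlapped. The means were 1348 ± 437.4 CPM for WT and 1082 ± 189.9 CPM for KO (SD, n = 3 each). The log2 fold was -0.32 (SE 0.26, 95% interval -0.94 to 0.31, edgeR adjusted p = 0.666). Without WT library 3 the fold was -0.10 (edgeR adjusted p = 0.789). Without a scaling factor it was 0.04.

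Within each genotype the miR-146 signal was lowest in the library that was also lowest in hepatocyte miR-122-5p and in lymphoid miR-150-5p. miR-122-5p stood at 29326, 50135 and 117809 CPM for WT and 37312, 42833 and 92272 CPM for KO. The 4 hepatocyte markers summed to 34236 to 133017 CPM for WT and 42625 to 103275 CPM for KO, and none of the 4 was at 0 in any library. In KO, miR-122-5p was highest in library 6, while the miR-146 signal was about equal in libraries 5 and 6. Myeloid miR-223-3p stood at 16049, 20385 and 15317 CPM for WT and 8637, 16014 and 10595 CPM for KO. Its order over the KO libraries was that of the miR-146 signal, and its order over the WT libraries was not. Lymphoid miR-150-5p stood at 30.9, 51.9 and 65.8 CPM for WT and 22.7, 29.6 and 42.3 CPM for KO, in the same order as miR-122-5p. The part of these cell types in the miR-146 values was not tested.

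miR-155-5p, the miRNA of activated macrophages and lymphocytes, stood at 172.0, 137.7 and 144.5 CPM for WT and 111.7, 128.1 and 125.0 CPM for KO. All 3 KO values lay below all 3 WT values, by 9.57 CPM between the nearest pair, as did those of 5.61% of the tested miRNAs outside the locus. The means were 151.4 ± 18.15 CPM for WT and 121.6 ± 8.736 CPM for KO (SD, n = 3 each). The log2 fold of -0.32 (SE 0.18, 95% interval -0.73 to 0.10) had an unadjusted edgeR p of 0.116 and an adjusted p of 0.564. Of the 9 members it had the lowest adjusted p.

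This separation of miR-155-5p did not hold on the unscaled share. As a share of all miRNA counts it took 0.0152%, 0.0123% and 0.0126% in WT, with Wilson 95% intervals from 0.01465 to 0.01571, from 0.01186 to 0.01269 and from 0.01218 to 0.0131. In KO it took 0.0136%, 0.0141% and 0.0136%, with intervals from 0.01308 to 0.01422, from 0.01351 to 0.01465 and from 0.01312 to 0.01405. The groups overlapped on this scale. The log2 fold was then 0.04 (SE 0.18). Its counts were 2215 to 3324 per library, and the intervals of the 3 KO shares overlapped one another. The myeloid markers summed to 15762 to 20770 CPM for WT and 8922 to 16348 CPM for KO, with all 4 counted in every library. Most of each sum was miR-223-3p, and the 4 did not move alike. Their log2 folds were -0.55 (SE 0.24) for miR-223-3p, -0.25 (SE 0.19) for miR-223-5p, -0.44 (SE 0.54) for miR-511-5p and 0.004 (SE 0.31) for miR-511-3p. The lymphoid markers, miR-150-5p and miR-150-3p, summed to 31.1 to 66.9 CPM for WT and 23.4 to 43.0 CPM for KO. Their part in the miR-155-5p values was not tested.

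The opposite strand, miR-155-3p, was at the limit of detection. It held 4, 4 and 0 counts in WT and 0, 0 and 1 in KO, where a count of 0 allows 0.131 counts per 1000000 in WT library 3 and 0.185 and 0.182 in KO libraries 4 and 5, taking 3 counts as the upper limit. A difference between the genotypes was not detectable at this depth. The hairpin is shown with both mature strands in capitals to mark where the counted 5p strand and the nearly uncounted 3p strand lie (chr16:84714140-84714204, plus strand, GRCm38.p6).
Mir155: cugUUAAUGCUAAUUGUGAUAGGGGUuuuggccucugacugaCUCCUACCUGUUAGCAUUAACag

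**Figure D2:**
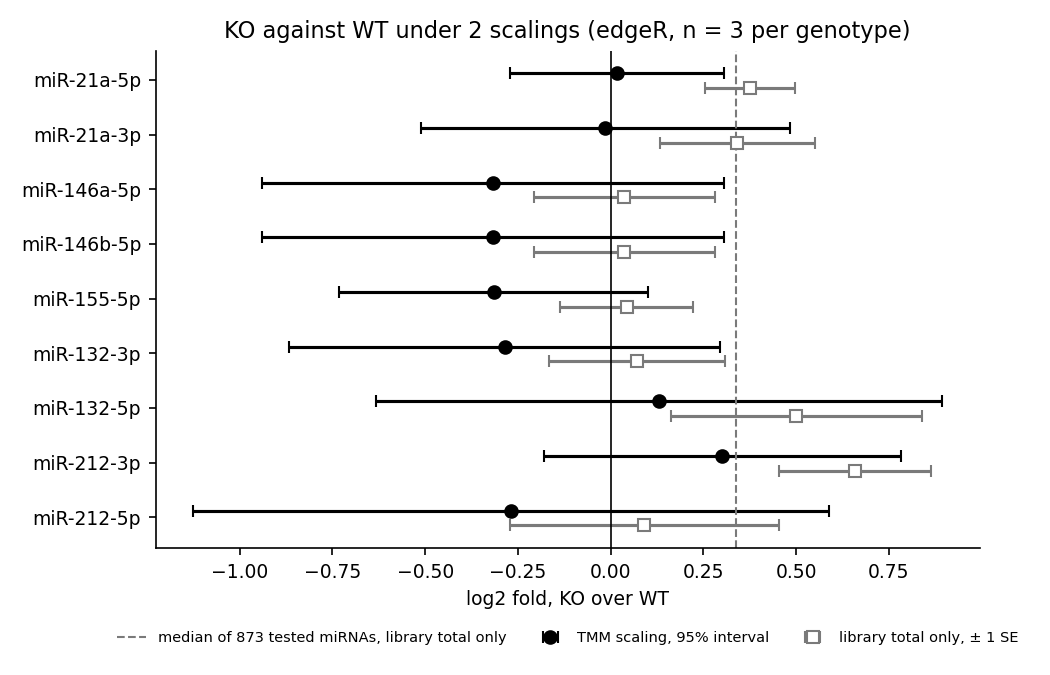
Log2 fold of KO over WT for the 9 miRNAs; filled points use TMM scaling with the approximate 95% interval, open squares the library total alone with ± 1 SE, and the dashed line is the median of the tested miRNAs at that scale, 0.34. All 9 filled intervals include 0, and the open squares run from 0.04 for miR-146a-5p to 0.66 for miR-212-3p.

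miR-132 and miR-212, the CREB-activated pair, were low in all libraries. Their hairpins are printed with the mature strands in capitals, 5p first, because the results that follow compare these 4 strands (chr11:75173388-75173478 for Mir212 and chr11:75173682-75173747 for Mir132, plus strand, GRCm38.p6).
Mir212: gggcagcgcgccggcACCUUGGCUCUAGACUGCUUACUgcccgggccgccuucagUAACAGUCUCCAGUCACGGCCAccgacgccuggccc
Mir132: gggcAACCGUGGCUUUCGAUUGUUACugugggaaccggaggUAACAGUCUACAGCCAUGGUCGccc

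miR-132-3p, the main strand, stood at 19.2, 16.1 and 19.7 CPM for WT and 13.1, 12.3 and 19.7 CPM for KO. KO libraries 4 and 5 lay below all WT libraries, and KO library 6 was level with the highest WT library. The log2 fold was -0.29 (SE 0.24, 95% interval -0.87 to 0.30, edgeR adjusted p = 0.68). Without KO library 6 it was -0.54 (edgeR adjusted p = 0.556).

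miR-212-3p, which has the same seed, stood at 4.10, 3.81 and 4.61 CPM for WT and 4.69, 5.08 and 5.63 CPM for KO. Each KO value was above every WT value, though the nearest pair differed by 0.0842 CPM, and 15.9% of the tested miRNAs outside the locus were separated in this direction. The log2 fold of 0.30 (SE 0.20, 95% interval -0.18 to 0.78) had an unadjusted edgeR p of 0.182 and an adjusted p of 0.604. Its values rest on 75, 92 and 92 counts in WT and 93, 92 and 147 in KO. Without a scaling factor the log2 fold was 0.66 (SE 0.20), the highest of the 9 members, with an unadjusted p of 0.0143 and an adjusted p of 0.103.

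Since both 3p strands carry the same seed, their balance was compared directly. There were 4.69, 4.22 and 4.28 counts of miR-132-3p for each count of miR-212-3p in WT, and 2.78, 2.42 and 3.50 in KO. All 3 KO ratios lay below all 3 WT ratios, with means of 4.398 ± 0.258 in WT and 2.90 ± 0.55 in KO (SD, n = 3 each). The log2 ratio fell by 0.61, with an exact two-sided permutation p of 0.1, the smallest that 3 against 3 libraries can give. A ratio within a library does not depend on the scaling. With this design the test cannot pass 0.05, and neither miRNA passed alone. How often ratios of other miRNA pairs separate in this way was not counted.

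Counting error left part of this difference uncertain in single libraries. The exact 95% counting interval was 3.35 to 5.35 in WT library 2, the lowest WT ratio, and 2.91 to 4.24 in KO library 6, the highest KO ratio, so those libraries overlapped. KO library 4, at 2.19 to 3.57, overlapped the intervals of WT libraries 2 and 3, which began at 3.35 and 3.41. Only KO library 5, at 1.89 to 3.12, overlapped none of the WT intervals. The seed as a whole, both 3p strands summed, stood at 23.3, 19.9 and 24.3 CPM for WT and 17.8, 17.4 and 25.4 CPM for KO, where the groups overlapped. miR-212-3p made up 18.6% ± 0.865 of it in WT and 25.9% ± 3.52 in KO (SD, n = 3 each).

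The 5p strands have seeds of their own, and neither passed the test. miR-132-5p stood at 1.58, 2.44 and 3.25 CPM for WT and 3.13, 2.21 and 2.64 CPM for KO, with a log2 fold of 0.13 (SE 0.32, edgeR adjusted p = 0.964). miR-212-5p stood at 2.19, 1.95 and 2.75 CPM for WT and 1.92, 1.10 and 2.64 CPM for KO, with a log2 fold of -0.27 (SE 0.36, edgeR adjusted p = 0.837), which moved to -0.04 when KO library 5 was left out and to -0.60 when KO library 6 was. The groups overlapped for both, and the counts were low, 29 to 69 for miR-132-5p and 20 to 69 for miR-212-5p. The ratio of miR-132-5p to miR-212-5p was 0.725, 1.26 and 1.18 in WT and 1.63, 2.0 and 1.0 in KO. It was thus higher in KO libraries 4 and 5 than in any WT library, the opposite side from the 3p ratio, and KO library 6 lay among the WT values.

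**Figure D3:**
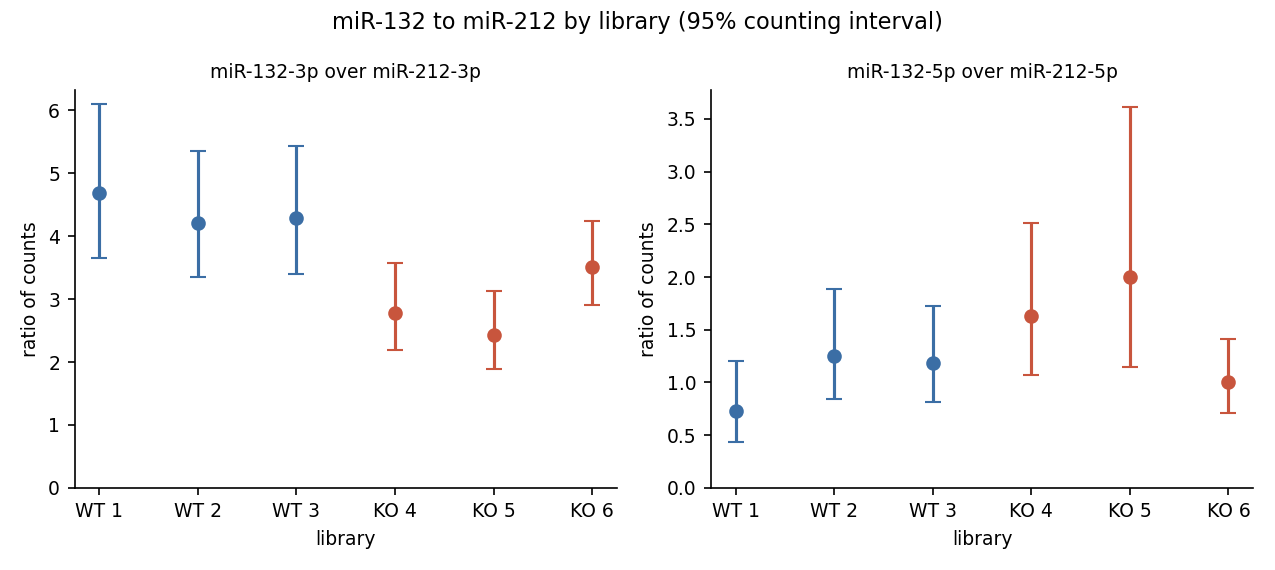
Ratio of miR-132 to miR-212 counts in each library (linear axes from 0), for the 3p strands on the left and the 5p strands on the right; bars are exact 95% counting intervals. The 3p ratio is 4.22 to 4.69 in WT and 2.42 to 3.50 in KO, while the 5p ratio overlaps between the genotypes.

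The choice of strand in these hairpins was then tested with limma over 263 hairpins, of which 0 passed (0%). Of 4 member hairpins with enough counts, 0 passed. In Mir132 the log2 ratio of 5p to 3p strand was -2.94 ± 0.533 in WT and -2.46 ± 0.419 in KO (SD, n = 3 each), a difference of 0.49 (SE 0.37, 95% interval -0.32 to 1.29, limma adjusted p = 0.863) that was 0.18 without WT library 1. In Mir212 it was -0.86 ± 0.115 and -1.50 ± 0.569 (SD, n = 3 each), a difference of -0.64 (SE 0.39, 95% interval -1.49 to 0.21, limma adjusted p = 0.823) that was -0.32 without KO library 5. The 3p strand was thus the larger in both hairpins and both genotypes, while miR-21a was a 5p hairpin. In miR-146a the difference was -0.14 (SE 0.45, limma adjusted p = 0.96), on a 3p strand of 3 to 25 counts. Its 5p count is the shared miR-146 signal, so this value is not the arm ratio of that hairpin alone.

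To place the members among the other miRNAs, the tested miRNAs with the most similar pattern over the 6 libraries were sought. The measure was the root mean square difference of log2 CPM, each miRNA centred on its own mean, over 458 miRNAs with a mean of at least 10 CPM. For miR-21a-5p the nearest was miR-30e-5p, at 0.0398 against a median of 0.290 for all 458, followed by miR-27a-3p and miR-27b-3p at 0.0627 and 0.0629. miR-27a-3p and miR-27b-3p held counts within 0.392% of each other and are a single signal here. For the miR-146 signal the nearest were miR-24-2-5p at 0.0713 and miR-24-1-5p at 0.0734, whose counts were within 2.88% of each other. Next came miR-148a-3p at 0.142, against a median of 0.412. For miR-155-5p they were miR-203-3p at 0.0458, miR-181d-5p at 0.0769 and miR-542-5p at 0.0834 (median 0.341), and for miR-132-3p miR-582-3p at 0.125, miR-143-3p at 0.149 and miR-503-3p at 0.155 (median 0.415). The nearest were picked as the smallest of the 458 values, so they lie below the median in any data. These values are descriptions of 6 libraries that share their depth and scaling.

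**Figure D4:**
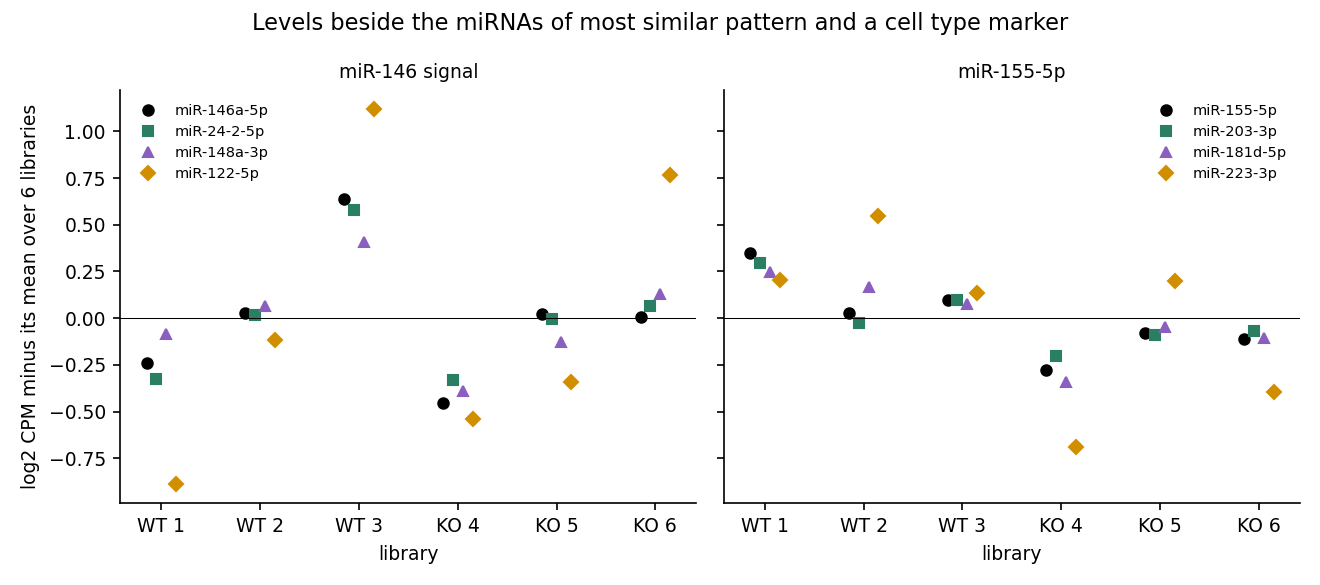
Log2 CPM minus its mean over the 6 libraries, by library, for miR-146a-5p and miR-155-5p (black circles) with 2 of the miRNAs of most similar pattern and, as diamonds, a hepatocyte (miR-122-5p) or myeloid (miR-223-3p) marker. The miR-146 signal is highest in WT library 3, as are miR-24-2-5p, miR-148a-3p and miR-122-5p, and miR-155-5p is lower in all 3 KO libraries.

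Other miRNAs known from innate immune cells were counted next. Of 24 listed miRNAs, all tested, 0 rose and 0 fell by edgeR after adjustment over all miRNAs. Among the 24, 1 had an unadjusted edgeR p under 0.05, and DESeq2 and limma-voom each called 0. Of the 873 tested miRNAs outside the locus, 0.458% passed, and at the unadjusted level 9.62% were higher and 1.37% lower in KO. The median log2 fold of the 24 was -0.25, with 18 below 0 and 6 above. For all 873 the median was -0.01, with 52.3% below 0. The list holds both strands of some hairpins, such as miR-223 and miR-142a, so the 24 are not all separate signals. The one at an unadjusted p of 0.0144 was miR-181a-5p, which sets the threshold of T cell receptor signalling, at 2721 ± 139.4 CPM for WT and 2088 ± 61.8 CPM for KO (SD, n = 3 each; log2 fold -0.38, SE 0.12; edgeR adjusted p = 0.271). miR-142a-3p, found in all blood cells, was the most abundant at 23415 ± 1379 and 24108 ± 5798 CPM (log2 fold 0.04, SE 0.18). miR-223-3p, a granulocyte and macrophage miRNA, stood at 17251 ± 2739 and 11749 ± 3822 CPM (SD, n = 3 each; log2 fold -0.55, SE 0.24; edgeR adjusted p = 0.459). The log2 fold was 0.01 (SE 0.16) for miR-142a-5p and -0.28 (SE 0.13) for miR-181b-5p. The groups did not overlap for 4 of the 24 downward, miR-181a-5p, miR-181b-5p, miR-23b-3p and miR-203-3p, and for 1 upward, miR-29b-3p, the last 3 named after their values were seen, beside 5.61% and 15.9% of all tested miRNAs outside the locus. These signs depended on the scaling. Without a scaling factor, an alternative chosen after seeing the data, 15 of the 24 were above 0 and 9 below, with a median of 0.10 beside 0.34 for all 873, and 0 passed. On that scale miR-181a-5p stood at -0.02, miR-181b-5p at 0.08, miR-23b-3p at 0.11 and miR-203-3p at 0.11, and the shares of these 4 miRNAs overlapped between the genotypes, while miR-29b-3p stood at 0.76.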

How the data were processed

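Per the labels' protocols, total RNA of mouse fetal liver went into NEXTflex small RNA libraries for a HiSeq2000. Adapters were trimmed with cutadapt, per the submitters' processing notes. Neither the aligner, nor the miRNA annotation, nor how reads with several matches were handled is stated: not given in the sources used here. Per the labels and values, the authors deposited raw counts per mature miRNA and, derived from them, the percent of each library's miRNA counts. The series design text speaks of HITS-CLIP; the labels describe miRNA sequencing of total RNA, and the values were treated as such.

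Counts were fitted over the whole table with edgeR 4.0.16 in R 4.3.3 (quasi-likelihood F-test, TMM scaling, filterByExpr), with Benjamini-Hochberg adjustment over 876 miRNAs and a threshold of 0.05. SE was taken as |log2 fold|/√F, and the 95% intervals built on it are approximate. Arm ratios (log2, 1 added to each count) were tested with limma 3.58.1 where both arms averaged 10 counts or more. Alternatives were other scalings, no filter, DESeq2 1.42.0, limma-voom and leaving out each library. The scripts were tested on simulated data. Ratios of paralogues were compared with exact permutation tests over 20 assignments (scipy 1.17.1). Hairpin positions and overlaps are from GENCODE M21 and RefSeq.

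Members, lists and tests were chosen with earlier results of these data known. Named miRNAs were the members, their opposite arms, miR-21b, miR-21c, the locus, the 3 nearest in pattern to each of 5 members, the 5 most abundant of the immune list and the first marker of each cell type list. The other myeloid markers were named singly after their values were seen. Cell type lists were erythroid, hepatocyte, myeloid, lymphoid, endothelial, mesenchymal, muscle and neural. The endothelial markers summed to 7323 to 10524 CPM in WT and 7735 to 11047 CPM in KO, the mesenchymal to 2224 to 3043 and 1979 to 2887 CPM, and the erythroid, with the locus, to 272409 to 355344 and 49926 to 69972 CPM. Of the 5 erythroid markers, 4 had a row. Over the 6 libraries miR-126a-3p ranged from 5878 to 8822 CPM, miR-143-3p from 1318 to 2219, miR-150-5p from 22.7 to 65.8, miR-206-3p from 6.97 to 203.8 and miR-124-3p from 0.276 to 7.81 CPM.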

Additional observations from a re-analysis of the deposited data

How the results depend on the processing

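The count of members called, 0 higher and 0 lower, was the same under RLE, upper-quartile and no scaling, with the locus removed before scaling, without a filter, by DESeq2, by limma-voom, without each library and with the miR-146 signal counted once; the last was chosen after seeing the data. Of the tested miRNAs outside the locus, 4 were called higher; the count was 1 with RLE scaling, 1 with upper-quartile scaling, 58 with no scaling factor, 1 when the locus was removed first, 10 by DESeq2 (with 2 lower) and 0 to 1 without single libraries. The direction of a member's log2 fold turned in the following cases, in which no member passed. miR-21a-5p stood at -0.0488 with RLE scaling, -0.065 with the locus removed, -0.0417 by DESeq2 and -0.11 to 0.0371 without single libraries. miR-21a-3p stood at 0.0837 with upper-quartile scaling, 0.34 with no scaling factor and -0.21 to 0.0489 without single libraries. With no scaling factor miR-146a-5p and miR-146b-5p stood at 0.0366 and 0.0368, miR-155-5p at 0.0428, miR-132-3p at 0.0697 and miR-212-5p at 0.0911. miR-132-5p ranged from -0.0943 to 0.34 without single libraries, being below 0 without WT library 1 or KO library 4. Without single libraries miR-212-5p kept its direction, from -0.60 to -0.04. miR-212-3p kept its direction in 13 of 13 alternatives, from 0.18 to 0.66. The arm ratio difference of miR-21a ranged from -0.0143 to 0.0949, that of miR-146a from -0.54 to 0.23, that of miR-132 from 0.18 to 0.70 and that of miR-212 from -0.85 to -0.32 without single libraries. The log2 ratio of miR-132-3p to miR-212-3p ranged from -0.76 to -0.49 without single libraries. The members' share in WT was 1.98%, 2.50% with the locus left out of the total, 1.86% with the miR-146 signal counted once (in KO 2.38%) and 1.94% to 2.005% without single libraries. No paired analysis was possible because WT libraries are numbered 1 to 3 and KO libraries 4 to 6. Depth limits the low members most, miR-212-5p, miR-132-5p and miR-212-3p, with 20 to 147 counts per library.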
